A study of Rattus norvegicus with 47 samples.

Results

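The mRNA of 10 genes of the JAK-STAT pathway was followed in rat blood over the first day after experimental stroke. They were the cytokine signalling inhibitors Socs1, Socs2, Socs3 and Cish, the kinases Jak1, Jak2 and Jak3, and the transcription factors Stat3, Stat4 and Stat5b. These 10 genes were chosen by symbol from 20935 gene symbols on the array. Each was measured by 1 probe set, so no choice between probe sets was needed. The animals were 8 male spontaneously hypertensive rats (SHR), a strain bred for high blood pressure, aged 16 weeks. The middle cerebral artery (MCA) was occluded with a thread under anesthesia, and the thread was withdrawn under a second anesthesia between the 1 h and the 2 h blood sample. Blood was taken before anesthesia (0 h) and at 1, 2, 3, 6 and 24 h after occlusion, giving 8 arrays per time point and 7 at 6 h, where the sample of rat 3 was missing. The tail vein was bled for the first 5 samples. The heart was punctured for the 24 h sample, right after an overdose of anesthetic. This last time point cannot be told apart from the site of sampling or from that overdose. All rats were operated on and no sham group was measured. A difference from 0 h therefore cannot be told apart from effects of surgery, anesthesia, repeated sampling or time of day.

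Cytokines that act through this pathway bring receptor chains together, the JAK kinases bound to those chains phosphorylate the receptor, and STAT proteins dock there, are phosphorylated in turn and move to the nucleus. STAT proteins switch on Socs and Cish genes among others, and the SOCS proteins then bind the receptor or the kinase and dampen the signal, which makes them a negative feedback. In blood, STAT3 is best known downstream of IL-6 and G-CSF, STAT5 downstream of IL-2, IL-3 and GM-CSF, and STAT4 downstream of IL-12 in T and NK cells.

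Levels are the mean log2 signals that the authors deposited for each time point, each given with the authors' SD over the arrays of that time point. The table was used at the level of time points, without the values of each rat. Differences are on the log2 scale and later minus earlier. They were tested with the moderated statistics of limma, adjusted by Benjamini-Hochberg over all 27596 probe sets, treating the arrays as independent although each rat was sampled repeatedly, and a gene was said to have risen, fallen or changed at an adjusted p below 0.05. Much of the array moved: 55.5% of all probe sets changed over the 6 time points by the F-test. Of the 10 genes, 9 changed, and Jak2 did not pass the test. The median SD over all probe sets lay between 0.14 and 0.16 at the 6 time points. The median difference from 0 h over all probe sets was 0.04 to 0.07.

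**Figure D1:**
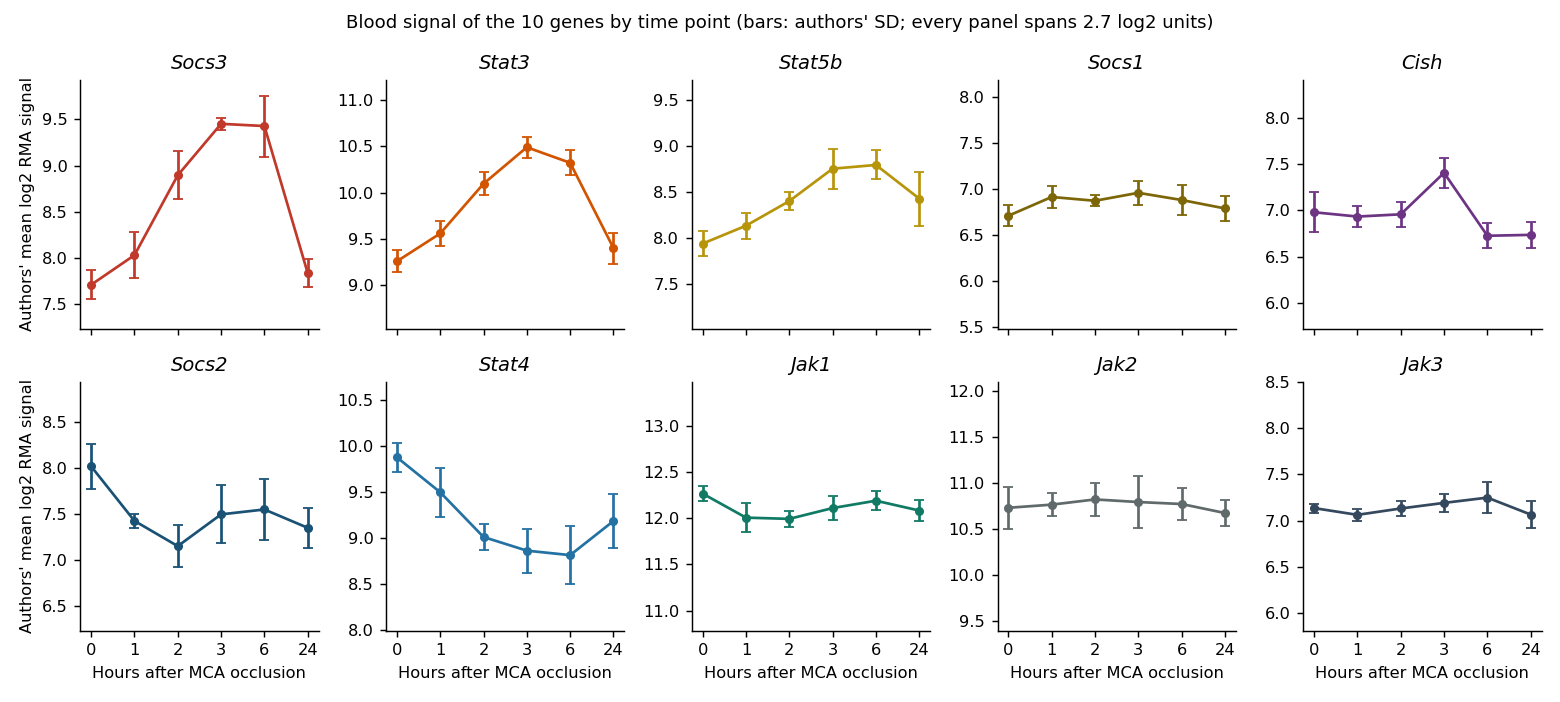
Authors' mean log2 signal (points) and SD (bars) of the 10 genes at the 6 time points, 8 arrays each and 7 at 6 h; time points are evenly spaced and every panel spans the same 2.7 log2 units. Socs3 and Stat3 stand highest at 3 h and 6 h, Cish peaks at 3 h, Socs2 and Stat4 stand highest at 0 h, and Jak2 is nearly flat.

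Among the 4 inhibitors, Socs3 rose 3.35-fold by 3 h and had a mean within 1 SD of its starting level at 24 h, Cish rose between 2 h and 3 h and fell from 3 h to 6 h, Socs2 was lower than at 0 h at every later time, and Socs1 rose by at most 1.19-fold.

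Socs3, the inhibitor induced by STAT3 that blocks IL-6 and G-CSF signalling, is measured by probe set 10749372 on the minus strand of chromosome 10 (rn5, 106612774 to 106613636). Its mean signal was 7.71 ± 0.16 (SD, n = 8) at 0 h, then 8.03 ± 0.25, 8.89 ± 0.26 and 9.45 ± 0.07 at 1, 2 and 3 h, 9.43 ± 0.33 (n = 7) at 6 h and 7.83 ± 0.15 at 24 h. The 3 h and 6 h means were the highest and lay within 1 SD of each other, while the 24 h mean stood within 1 SD of the 0 h mean. Socs3 was 1.25-fold higher than at 0 h already at 1 h (log2 difference 0.32, SE 0.11, limma adjusted p = 0.0139). The difference grew to 1.19 at 2 h and to 1.74 at 3 h (3.35-fold, 95% interval 2.90 to 3.88, limma adjusted p = 1.2e-18). Only 0.323% of all probe sets were raised more at 3 h. At 6 h the signal was still 3.29-fold above 0 h. At 24 h the difference was 0.13, with a 95% interval from -0.08 to 0.34, and did not pass the test (limma adjusted p = 0.369). Step by step, Socs3 rose from 1 h to 2 h by 0.87 and from 2 h to 3 h by 0.56, did not pass the test from 3 h to 6 h, and fell by 1.59 from 6 h to 24 h, the 37th largest fall of that step. By the F-test over the 6 time points it ranked 43rd of 27596 probe sets (limma adjusted p = 3.82e-22).

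Cish encodes the founding member of the family, an inhibitor best known as a target of STAT5 that limits IL-2, IL-3 and growth hormone signalling. Its probe set 10912908 covers 115413996 to 115415381 on the plus strand of chromosome 8 (rn5). Its mean signal was 6.98 ± 0.22 (SD, n = 8) at 0 h, then 6.93 ± 0.11, 6.96 ± 0.13 and 7.41 ± 0.16 at 1, 2 and 3 h, 6.73 ± 0.13 (n = 7) at 6 h and 6.74 ± 0.14 at 24 h. Only the 3 h mean stood above that at 0 h by more than the spread of the arrays. Cish did not pass the test at 1 h or 2 h, rose from 2 h to 3 h by 0.45 (SE 0.08, 1.37-fold, limma adjusted p = 1.09e-04), and fell by 0.68 from 3 h to 6 h (SE 0.08, limma adjusted p = 5.53e-08). That fall was the 26th largest of the step. Against 0 h it was higher at 3 h (0.43, limma adjusted p = 1.2e-05), and lower in the last 2 samples (differences of -0.25 and -0.25, limma adjusted p = 0.00843 and 0.0129). The call at 24 h was lost, at an adjusted p of 0.0653, when each time point's own SD was used in place of the pooled spread.

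The 300 bases around the start of Cish (RefSeq, GRCr8, chr8:116850719-116851018, plus strand, 250 bases before the start and 50 after) are shown because they hold several copies of the letters that STAT5 and STAT3 are known to bind. The motif searched was TTCNNNGAA, which reads the same on both strands, and its matches are in capitals. The corresponding window of Socs1 (chr10:5389324-5389623, plus strand) is the only other with a match among the 7 of the 10 genes that the promoter table holds.

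Cish: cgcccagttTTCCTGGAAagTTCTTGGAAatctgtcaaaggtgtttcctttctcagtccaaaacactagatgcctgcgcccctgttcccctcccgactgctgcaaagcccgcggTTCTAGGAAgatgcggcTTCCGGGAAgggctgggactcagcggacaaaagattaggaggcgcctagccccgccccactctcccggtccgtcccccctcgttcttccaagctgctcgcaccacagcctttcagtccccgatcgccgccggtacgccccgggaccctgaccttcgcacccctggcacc

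Socs1: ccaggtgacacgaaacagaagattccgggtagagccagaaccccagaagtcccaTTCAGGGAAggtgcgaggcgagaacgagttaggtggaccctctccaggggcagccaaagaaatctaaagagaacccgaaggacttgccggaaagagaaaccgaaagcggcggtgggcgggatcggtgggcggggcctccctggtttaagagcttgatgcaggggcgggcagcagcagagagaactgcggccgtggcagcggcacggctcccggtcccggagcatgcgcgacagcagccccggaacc

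The Cish window held 4 matches, starting 241, 230, 136 and 119 bases before the start of transcription, and the Socs1 window held 1, starting 196 bases before it. Of 33469 promoter windows of this length, 8.874% held at least 1 match, 0.5468% held 2 or more, and Cish was among 2 windows with 4 or more. No match was found in the windows of Socs3, Jak2, Stat3, Stat4 and Stat5b. The Socs3 window lies around a start 1207 bases inside the outermost start that RefSeq gives for the gene. A match is a description of the letters only, and whether a STAT protein bound there was not measured.

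Socs2, known for limiting growth hormone signalling, is measured on the minus strand of chromosome 7 (rn5, 36558014 to 36560623). Its mean signal was 8.02 ± 0.24 (SD, n = 8) at 0 h, then 7.42 ± 0.08, 7.15 ± 0.23 and 7.50 ± 0.32 at 1, 2 and 3 h, 7.55 ± 0.33 (n = 7) at 6 h and 7.35 ± 0.22 at 24 h. The 0 h mean was the highest, and the 5 later means, in order of level, each lay within 1 SD of their neighbour. Socs2 fell to 0.66 times its 0 h level at 1 h (log2 difference -0.59, SE 0.12, limma adjusted p = 1.12e-04) and to 0.55 times at 2 h (-0.86, limma adjusted p = 5.02e-08). It was still lower by 0.52, 0.47 and 0.67 at 3, 6 and 24 h, each past the test. At 24 h only 1.28% of all probe sets were lowered more. The partial return from 2 h to 3 h (0.34) did not pass the test (limma adjusted p = 0.0962).

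Socs1, the inhibitor of interferon signalling that acts on the JAK kinases directly, is measured on the plus strand of chromosome 10 (rn5, 3782936 to 3783574). Its mean signal ran from 6.71 ± 0.12 (SD, n = 8) before occlusion over 6.91 ± 0.12, 6.87 ± 0.06 and 6.96 ± 0.13 at 1, 2 and 3 h and 6.88 ± 0.16 (n = 7) at 6 h to 6.79 ± 0.13 at 24 h. Every pair of neighbours in the order of these levels lay within 1 SD. Socs1 was higher than at 0 h at 1, 2, 3 and 6 h, by 0.16 to 0.25, and at 3 h the difference was 0.25 (SE 0.06, 1.19-fold, limma adjusted p = 0.00116). At 24 h the difference of 0.08 did not pass the test. With each time point centred on its median over all probe sets, the calls at 1, 2 and 6 h were lost (adjusted p of 0.0535, 0.0906 and 0.0826), and the call at 3 h remained.

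**Figure D2:**
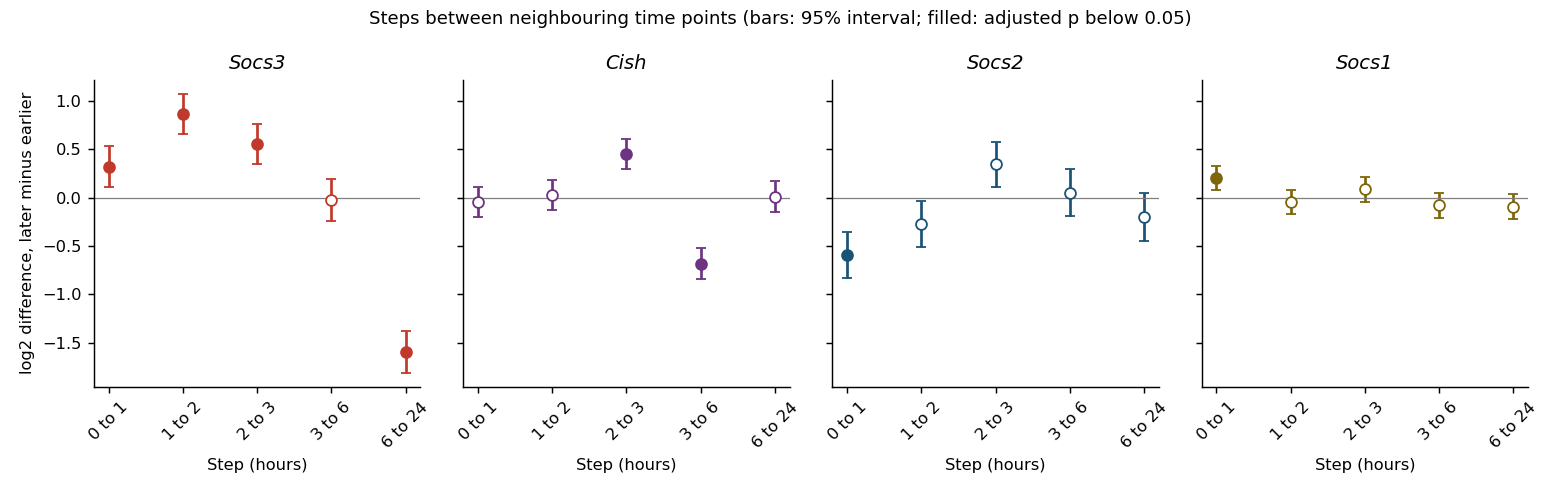
Log2 difference between neighbouring time points, later minus earlier, for Socs3, Cish, Socs2 and Socs1; bars are 95% intervals and filled points have a limma adjusted p below 0.05. Socs3 gains 0.87 from 1 h to 2 h and loses 1.59 from 6 h to 24 h, Cish gains 0.45 from 2 h to 3 h and loses 0.68 from 3 h to 6 h, and the differences of Socs2 and Socs1 passed the test from 0 h to 1 h alone.

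Among the STAT genes, Stat3 and Stat5b rose while Stat4 fell. Stat3, which carries IL-6 and G-CSF signals, and Stat5b, which carries those of growth hormone and of the IL-2 and IL-3 families, are both measured on the minus strand of chromosome 10 (rn5, 88584610 to 88638724 and 88480377 to 88506891). The mean signal of Stat3 was 9.26 ± 0.12 (SD, n = 8) at 0 h, then 9.56 ± 0.14, 10.10 ± 0.13 and 10.49 ± 0.12 at 1, 2 and 3 h, 10.32 ± 0.14 (n = 7) at 6 h and 9.40 ± 0.17 at 24 h. In the order of level, the 3, 6, 2 and 1 h means each stood above the next by more than the larger SD, down to 1 h, while those at 1, 24 and 0 h did not. Stat3 was higher by 0.30 and 0.84 at 1 and 2 h, by 1.24 at 3 h (SE 0.07, 2.36-fold, limma adjusted p = 6.63e-20) and by 1.07 at 6 h (2.10-fold). At 24 h the difference of 0.14 did not pass the test (limma adjusted p = 0.103), but it was 0.23 and passed it (adjusted p = 0.011) with the means quantile normalized. Stat3 ranked 47th by the F-test (limma adjusted p = 4.12e-22). It rose from 1 h to 2 h by 0.54 and from 2 h to 3 h by 0.40, and fell by 0.92 from 6 h to 24 h.

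The mean signal of Stat5b was 7.94 ± 0.14 (SD, n = 8) at 0 h, then 8.14 ± 0.14, 8.40 ± 0.10 and 8.75 ± 0.22 at 1, 2 and 3 h, 8.79 ± 0.16 (n = 7) at 6 h and 8.43 ± 0.29 at 24 h. The 3 h and 6 h means lay within 1 SD of each other, as did those at 2 h and 24 h. Stat5b was higher than at 0 h by 0.46 at 2 h, 0.81 at 3 h (SE 0.09, 1.76-fold, limma adjusted p = 3.89e-10) and 0.85 at 6 h (1.81-fold). It was the only one of the 10 genes still higher than at 0 h at 24 h (0.49, SE 0.09, limma adjusted p = 5.71e-05). The difference of 0.19 at 1 h did not pass the test (limma adjusted p = 0.0877), and it passed when each time point's own SD was used, with quantile normalized means, and without the 24 h samples. The rise from 2 h to 3 h (0.35) and the fall from 6 h to 24 h (-0.36) lost their calls with each time point's own SD (adjusted p of 0.0852 and 0.0737).

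Stat4, which answers to IL-12 and type I interferon in T and NK cells, is measured on the minus strand of chromosome 9 (rn5, 54051153 to 54167491). Its mean signal was 9.88 ± 0.16 (SD, n = 8) at 0 h, then 9.50 ± 0.27, 9.01 ± 0.14 and 8.87 ± 0.24 at 1, 2 and 3 h, 8.82 ± 0.32 (n = 7) at 6 h and 9.19 ± 0.30 at 24 h. The 0 h and 1 h means stood highest, each above the next by more than the larger SD, and the 4 others formed an order in which no neighbours differed by more than it. Stat4 was lower than at 0 h by 0.38 and 0.86 at 1 and 2 h and by 1.01 at 3 h (SE 0.12, limma adjusted p = 9.03e-10). At 6 h it fell by 1.06 against 0 h, to 0.48 times that level (limma adjusted p = 5.78e-10). At 24 h it was still lower by 0.69 (limma adjusted p = 1.34e-05). Between neighbouring times it fell from 1 h to 2 h by 0.49 and rose from 6 h to 24 h by 0.37. The call of that rise was lost (adjusted p of 0.165) with each time point's own SD.

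Of Jak1, Jak2 and Jak3, only Jak1 passed the test against 0 h, with differences down to -0.27. Jak1, the kinase shared by the gp130, common gamma chain and interferon receptors, is measured on the minus strand of chromosome 5 (rn5, 123865078 to 123908893). Its mean signal was 12.27 ± 0.08 (SD, n = 8) at 0 h, then 12.01 ± 0.15, 11.99 ± 0.08 and 12.11 ± 0.13 at 1, 2 and 3 h, 12.19 ± 0.10 (n = 7) at 6 h and 12.08 ± 0.12 at 24 h. No neighbours in the order of these levels differed by more than the larger SD. Jak1 was lower than at 0 h by 0.26 at 1 h (limma adjusted p = 6.02e-04), 0.27 at 2 h (limma adjusted p = 2.13e-04), 0.16 at 3 h and 0.18 at 24 h. At 6 h the difference of -0.08 did not pass the test.

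Jak2, the kinase of the single-chain hormone and common beta chain receptors, is measured on the plus strand of chromosome 1 (rn5, 254646699 to 254705434). Its mean signal lay between 10.67 ± 0.14 (SD, n = 8) at 24 h and 10.82 ± 0.18 at 2 h, with 10.73 ± 0.23 at 0 h. It passed no test, neither against 0 h nor between neighbours nor over all 6 time points (limma adjusted p = 0.745 for the F-test). Its difference from 0 h at 3 h was 0.06, with a 95% interval from -0.13 to 0.25.

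Jak3, the kinase bound to the common gamma chain, is measured on the plus strand of chromosome 16 (rn5, 19969814 to 19981116). Its mean signal was 7.14 ± 0.05 (SD, n = 8) at 0 h, then 7.06 ± 0.07, 7.13 ± 0.08 and 7.19 ± 0.10 at 1, 2 and 3 h, 7.25 ± 0.17 (n = 7) at 6 h and 7.07 ± 0.14 at 24 h. No difference from 0 h passed the test. From 6 h to 24 h Jak3 fell by 0.18 (limma adjusted p = 0.0197), a call lost with each time point's own SD (adjusted p of 0.176). With quantile normalized means it was also higher at 6 h than at 0 h, by 0.15 (adjusted p of 0.0369).

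Counted over the 10 genes, 3 were higher and 3 lower at 1 h than before occlusion, where 21.7% of all probe sets were higher and 15.4% lower. With centred means 2 were higher and 3 lower, beside 12.6% and 18.8%. At 2 h, 4 were higher and 3 lower, beside 21.7% and 18.6% of all probe sets. With centred means Socs1 was no longer among the higher, and the shares were 16.1% and 20.3%. At 3 h, 5 were higher (Socs1, Socs3, Cish, Stat3 and Stat5b) and 3 lower (Socs2, Jak1 and Stat4), beside 27.3% and 19.2%. With centred means the counts were also 5 and 3, beside 19.1% and 21.4%. At 6 h, 4 were higher and 3 lower, beside 22.5% and 19.3%. Centring again took Socs1 from the higher, and the shares were 16.9% and 21.0%. At 24 h, 1 was higher (Stat5b) and 4 were lower (Socs2, Cish, Jak1 and Stat4), beside 17.4% and 13.9%. With centred means they were again 1 and 4, beside 9.96% and 16.8%. The median difference over the 10 genes was -0.01, 0.04, 0.16, 0.08 and -0.06 in the order of the 5 times. All 5 comparisons share the 0 h arrays.

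Between neighbouring times, 2 of the 10 genes rose from 1 h to 2 h (Socs3 and Stat3), beside 4.66% of all probe sets, and 1 fell (Stat4), beside 4.11% (with centred means 3 rose and 1 fell, beside 5.49% and 3.04%). Stat5b also stood higher at this step, by 0.27, at an adjusted p of 0.0555 that missed the threshold. It passed with each time point's own SD, with centred and with quantile normalized means, with the 25% of probe sets of lowest mean left out and without the 24 h samples, at adjusted p of 0.0204 to 0.045. From 2 h to 3 h, 4 rose (Socs3, Cish, Stat3 and Stat5b), beside 1.9% of all probe sets, and 0 fell, beside 1.62%. From 3 h to 6 h, 0 rose, beside 2.34%, and 1 fell (Cish), beside 2.44%. From 6 h to 24 h, 1 rose (Stat4), beside 10.2%, and 4 fell (Socs3, Jak3, Stat3 and Stat5b), beside 8.68%.

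Whole blood is a mixture, and in such samples fewer cells of a type and less RNA per cell cannot be told apart. Markers of several cell types moved over the same hours. All 9 T cell markers were lower than at 0 h in each of the 5 later samples. The call of Cd3e at 1 h was lost with quantile normalized means (adjusted p of 0.0512). The median difference over the 9 was -0.54, -1.01, -1.02, -1.14 and -0.75 in order of time. In the same order the differences of Stat4 were -0.38, -0.86, -1.01, -1.06 and -0.69. The summed signal of the T cell markers was 9256 before occlusion, 4163 at 6 h and 5496 at 24 h. Of the 6 NK cell markers, 2, 3, 4, 4 and 4 were lower in the 5 later samples and 1, 1, 0, 1 and 0 were higher. Their summed signal ranged from 3013 to 5462 over the 6 time points.

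The neutrophil markers rose. Of 8, all were higher at 1 and 2 h, 7 at 3 and 6 h, and 6 at 24 h, when Ngp was lower. Their median difference was 1.04, 1.49, 1.31, 1.65 and 0.74 in the 5 later samples, and their summed signal ranged from 14506 at 0 h to 41141 at 2 h, with 30799 already reached at 1 h and 22309 left at 24 h. Socs3 and Stat3 stood 0.32 and 0.30 above 0 h at 1 h, when the marker median was 1.04, and 0.13 and 0.14 above it at 24 h, when the median was 0.74. Between 1 h and 2 h, 6 of the 8 neutrophil markers rose (median difference 0.44), beside 4.66% of all probe sets, as Socs3 and Stat3 rose. Between 6 h and 24 h all 8 fell (median difference -0.96), beside 8.68% of all probe sets, as Socs3, Stat3 and Stat5b fell. From 2 h to 3 h, 0 of the 8 rose and 0 fell, beside 1.9% and 1.62% of all probe sets. Their median difference was then -0.20, and Socs3, Stat3, Stat5b and Cish rose. At a share of 1.9%, a count of 0 among 8 does not set these markers apart from the background. Of the 6 monocyte markers, 1 was higher and 4 lower in the 1 h samples, and from 2 h to 6 h both directions held 3 markers. At 24 h, 0 were higher and 3 lower. Between neighbouring times, 3 of the 6 monocyte markers rose from 1 h to 2 h, and 0 rose or fell from 2 h to 3 h. From 6 h to 24 h, 2 of them rose and 3 fell, beside 10.2% and 8.68% of all probe sets. Their summed signal was 12231 at 1 h and between 12939 and 15918 at the other time points. Of the 7 B cell markers, 6 were lower at 3 h, with a median difference of -2.14 over the 7, and Pax5 did not pass the test (-0.13). The summed signal of the 7 ranged from 2222 to 8548 over the 6 time points. Of the 5 platelet and 5 erythroid markers, at most 2 of each list changed against 0 h at any time. No marker was at 0: the lowest mean log2 signal of any was 5.66. The part of these cell types in the levels of the 10 genes was not tested.

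**Figure D3:**
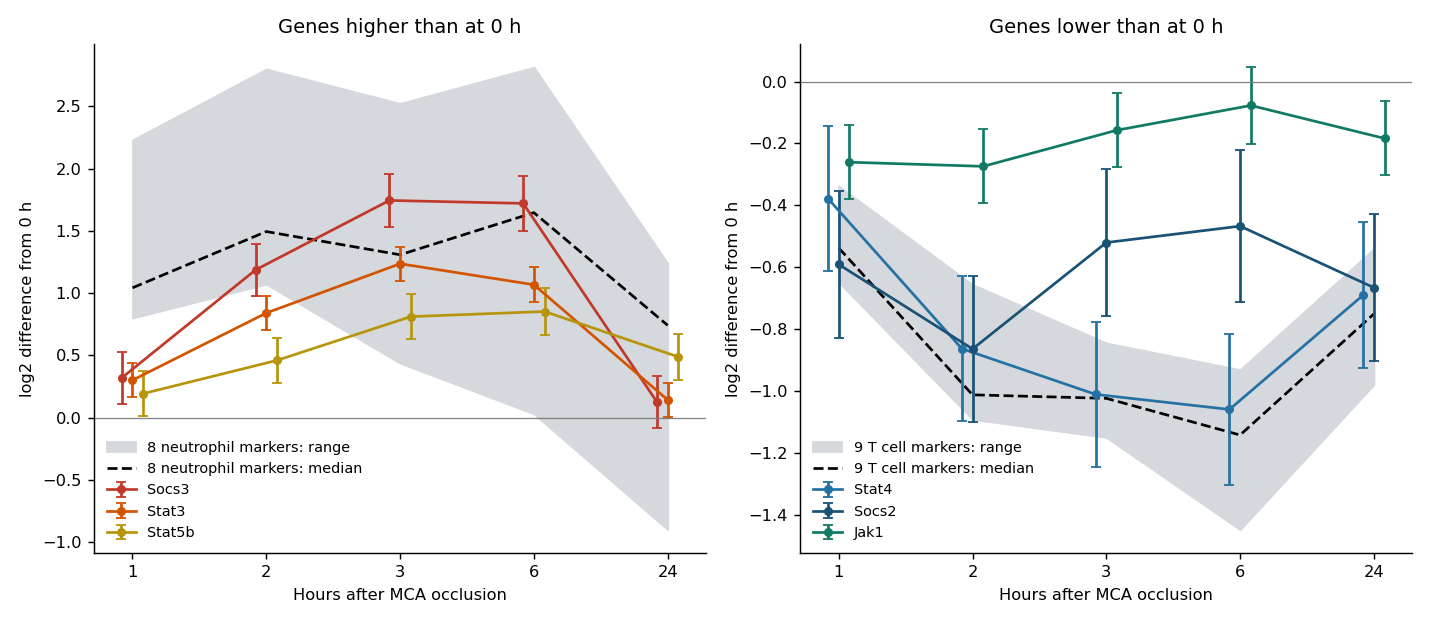
Log2 difference from 0 h with 95% intervals for Socs3, Stat3 and Stat5b (left) and Stat4, Socs2 and Jak1 (right), with the median (dashed) and the range (grey) of 8 neutrophil and 9 T cell markers; time points are evenly spaced. The neutrophil median is 1.04 at 1 h, above the 0.32 of Socs3, and Stat4 runs close to the T cell median, at -1.06 against -1.14 at 6 h.

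Among the other members of the 2 families, none of Tyk2, Stat2, Stat5a and Stat6 was higher than at 0 h at any time. Tyk2, the remaining JAK kinase, was lower from 3 h on, by 0.25, 0.31 and 0.19, and the calls at 3 h and 24 h were lost with quantile normalized means. Stat2, which carries type I interferon signals, was lower at 24 h (-0.90, limma adjusted p = 1.72e-11). Stat5a, the close relative of Stat5b, was lower by 0.22 at 1 h and did not pass the test from 3 h on. Of Socs4, Socs5, Socs6 and Socs7, 2 were lower at 24 h (Socs5 by 0.24 and Socs7 by 0.20), calls lost with quantile normalized means, and Socs6 was higher by 0.14, a call lost with centred means. Over all probe sets 13.9% were lower and 17.4% higher then. Among 11 other inhibitors and phosphatases, 3 were higher and 3 lower at 3 h, a share near the 27.3% and 19.2% of all probe sets. Ptpn1, a phosphatase that acts on JAK2 and TYK2, was higher by 0.60, and Ptpn6, the phosphatase SHP-1 of blood cells, by 0.29. Pias2 was lower by 0.31, a call lost with quantile normalized means, and Ptprc, the phosphatase CD45, by 0.24.

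Each group of receptors held members in both directions or members that did not pass the test. In the gp130 and G-CSF group, 3 of 6 were higher and 1 lower at 3 h, beside 27.3% and 19.2% of all probe sets: Csf3r, the G-CSF receptor, by 1.31, and Il6st, which is gp130, by 0.58, while Lifr was lower by 0.36. Csf3r, which neutrophils hold in abundance, stood 1.95 above 0 h at 6 h and was still 0.88 higher after 24 h. In the common gamma chain group, 3 of 7 were lower at 1 h and 4 of 7 at each later time, beside 13.9% to 19.3% of all probe sets. The call of Il2ra at 1 h was lost with quantile normalized means. All 9 T cell markers were lower at the same times, with medians of -0.54 to -1.14. The call of Cd3e at 1 h was likewise lost with quantile normalized means. The part of T cells in the levels of these receptors was not tested. Il2rg, the common gamma chain itself, was lower by 0.45 at 1 h, a gap that reached 1.01 at 6 h, and Il21r was lower by 0.58 at 1 h. Il7r was higher by 0.36 at 1 h and lower by 0.90 at 6 h. In the common beta chain group, 2 of 3 were higher and 1 was lower at 2 h, beside 21.7% and 18.6% of all probe sets. Csf2rb, the chain shared by the receptors of IL-3, IL-5 and GM-CSF, was higher by 1.59 at 2 h and 2.27 at 6 h, Il3ra was higher by 0.47 at 2 h, and Il5ra, an eosinophil receptor, was lower by 0.92 at 2 h and 1.78 at 6 h.

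Among 5 receptors for interferons and IL-10, 3 were higher and 1 lower in the 2 h samples, beside 21.7% and 18.6% of all probe sets. Both chains of the interferon-gamma receptor were higher, Ifngr2 by 0.62 and Ifngr1 by 0.51, and Il10ra was lower by 0.17, a call lost with quantile normalized means. Il12rb2, the chain of the IL-12 receptor that recruits STAT4, was higher by 0.93 at 1 h and lower by 0.53 at 6 h, so that it was higher at 1 h while Stat4 was already lower. The erythropoietin receptor Epor was higher by 0.25 at 1 h. Of 14 ligands, 5 were higher and 2 lower at 2 h, beside 21.7% and 18.6% of all probe sets. Oncostatin M (Osm), a gp130 cytokine that neutrophils and macrophages make, was higher by 1.10 and Il12a by 0.36. Il15 was lower by 0.51 and Il6 by 0.28. The mean log2 signal of Il6 was 5.36 at 0 h and 5.08 at 2 h, where the median over all probe sets was 6.64. The paper lists its probe set as not significant over time. Csf2, one of the 5 higher, lay at 4.35 at 2 h, and its call was lost with quantile normalized means.

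Of 14 measured genes known as targets of STAT3 or STAT5, 4, 9, 10, 10 and 2 were higher and 1, 2, 3, 3 and 4 lower in the 5 later samples in order of time. Over all probe sets 21.7%, 21.7%, 27.3%, 22.5% and 17.4% were higher and 15.4%, 18.6%, 19.2%, 19.3% and 13.9% lower, so that the counts of higher genes at 1 h and 24 h were near the background. With centred means 2 were higher at 1 h and 1 at 24 h. Their median difference was 0.08, 0.36, 0.41, 0.44 and 0.01, beside 0.05, 0.05, 0.07, 0.05 and 0.04 over all probe sets. At 3 h Pim1, a survival kinase, was higher by 0.92 (limma adjusted p = 3.74e-10) and Bcl2l1, which encodes BCL-XL, by 0.67. Bcl2 was lower by 1.22 (limma adjusted p = 4.51e-11) and Myc by 0.45. Pim2, the other of the 3 that fell, was lower by 0.35. Bcl2 is abundant in lymphocytes, whose markers were lower in the same samples, and the part of these cells in its level was not tested. From 6 h to 24 h, 9 of the 14 fell and 1 rose, beside 8.68% and 10.2% of all probe sets. The median of the 8 neutrophil markers stood 1.49, 1.31 and 1.65 above 0 h at 2, 3 and 6 h, when most targets were higher. All 8 of these markers fell from 6 h to 24 h. The part of neutrophils in the levels of the 14 targets was not tested either. Many of these genes answer to other signals too, so their courses are not a measure of STAT activity.

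**Figure D4:**
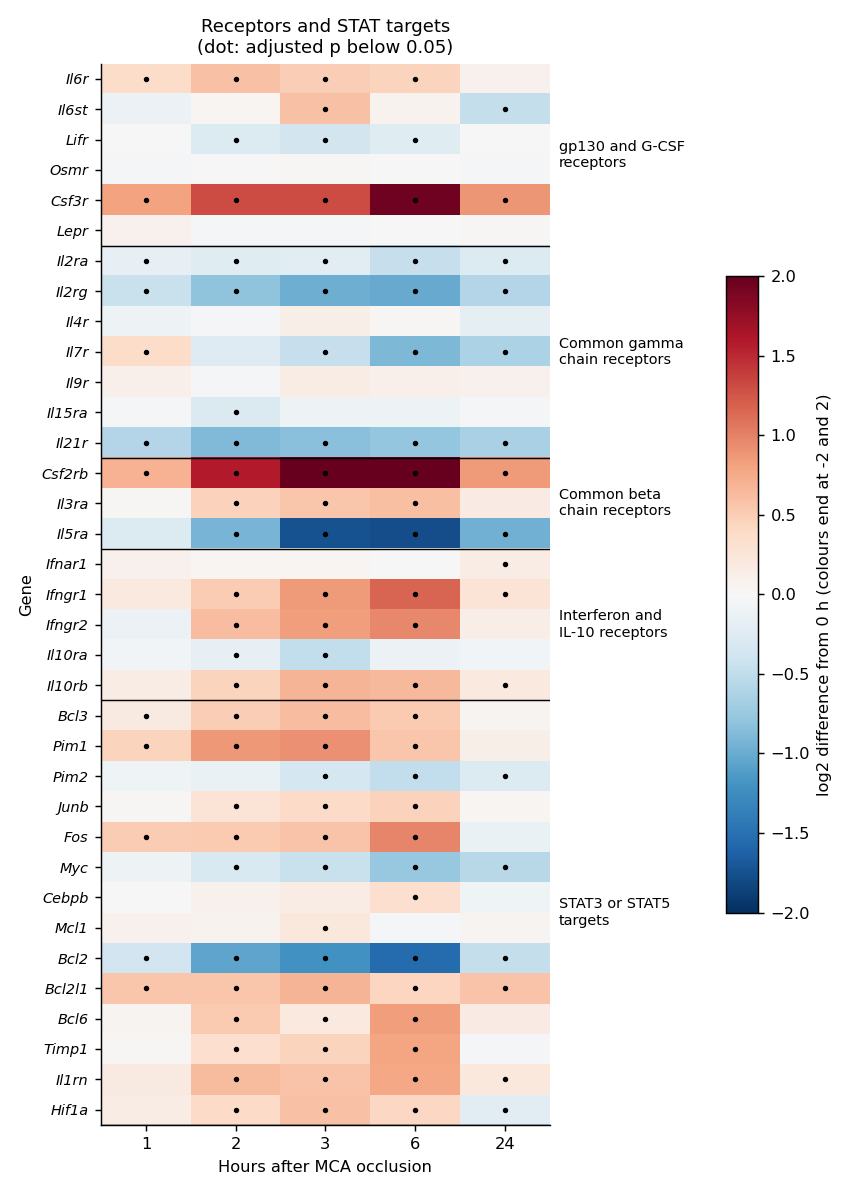
Log2 difference from 0 h (colour, ending at -2 and 2) of receptor genes and of genes known as targets of STAT3 or STAT5 at the 5 later time points; dots have a limma adjusted p below 0.05. Csf2rb and Csf3r are the deepest red at 6 h (2.27 and 1.95), Il5ra and Bcl2 the deepest blue (-1.78 and -1.55), and most target genes are paler at 24 h.

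The genes with the courses most like those of the members were found by the root mean square distance of the 5 differences from 0 h, over genes with a symbol. For Socs3 these were Ier3 (distance 0.19 log2 units), Sema4a (0.19) and Arid5a (0.20). For Stat3 they were Ppp1r3d, RGD1304595 and Csprs, at 0.13 to 0.14. For Stat4 they were LOC100912942 (0.06), the common gamma chain gene Il2rg (0.07) and Ipo7 (0.08). For Cish they were the olfactory receptor probe set Olr1073 (0.12), Dtx3l (0.12) and Olr1654 (0.13), of which Olr1073 stood 0.27 above 0 h at 3 h where Cish stood 0.43. For Jak3, whose own differences were within 0.11 of 0, they were Faap100, Cer1 and Olr563, at 0.01 to 0.02. These distances are taken between means that share the same arrays and are descriptions.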

How the data were processed

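Blood mRNA of 8 rats was measured on 47 one-colour Affymetrix rat gene arrays (RaGene 1.0 ST) over 6 time points. RNA was extracted from blood cell pellets in batches whose assignment was not used here. Per the file headers, the authors made gene-level log2 signals with RMA, annotated on rn5. The deposited table also gives the authors' mean and SD of these log2 values per time point, which were used. Its 47 columns of single arrays could not be matched to samples by name and were not used, nor were the authors' own fold changes, p-values, false discovery rates and F statistics. No array has a read depth, and precision is limited by the number of arrays.

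Because only means and SDs were used, limma's moderated F and t (version 3.58.1, R 4.3.3) were computed from them, with pooled variances (41 residual degrees of freedom) moderated by squeezeVar and Benjamini-Hochberg adjustment over all 27596 probe sets. This fit, planned as the substitute for one on single arrays, treats arrays as independent although the same rats were sampled repeatedly. The calculation was tested on simulated data. Time points were compared with 0 h and with their neighbours. Intervals are 95%. The text names the 10 genes, and from each gene list the 2 highest and 2 lowest past the threshold at the time with most calls; further values of the same list genes, and those of other list genes named without such a rank, were chosen after their values were seen. Csf2ra, Il2rb, Cebpd and Ifnar2 matched no symbol. Some genes of the lists are not reported here. The members and lists were chosen with earlier results of these data known. Promoter windows are from RefSeq (GRCr8) and 7 of 10 genes matched. Alternatives changed the variance model, the normalization, the filter, the samples and the threshold.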

Additional observations from a re-analysis of the deposited data

How the results depend on the processing

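No paired analysis was possible because the columns used pool the rats of a time point and those of single arrays are named by a number alone, which no sample label carries. Leaving out each rat, and the rat as a replicate block, could not be run for the same reason, and a second probe set gave no value because each gene has 1. Of 770 results of the 10 genes under the alternatives, 734 kept their direction and side of the threshold. Those that changed direction were never called: with centred means Jak2 at 1 h against 0 h (-0.015), Jak1 from 1 h to 2 h (0.0066) and Cish from 6 h to 24 h (-0.0012), and with quantile normalized means Jak3 at 2 h against 0 h (0.033) and Jak1 from 1 h to 2 h (0.010). With each time point's own SD (a Welch-type test), the probe sets called were 201 higher and 186 lower from 2 h to 3 h, 198 and 128 from 3 h to 6 h, and 1636 higher from 6 h to 24 h, where 0 of the 10 genes rose and 2 fell. Centring left 3465 higher at 1 h and 2749 at 24 h. Quantile normalization gave 2 of the 10 genes higher at 24 h. At a threshold of 0.01, against 0 h, 3445, 3641, 4789, 3938 and 2410 probe sets were higher in the 5 later samples, with 2503 lower and 2 of the 10 genes lower at 24 h. At that threshold the steps gave 797 higher and 420 lower from 1 h to 2 h, 236 and 217 from 2 h to 3 h, 272 and 247 from 3 h to 6 h, and 1761 higher and 0 of the 10 genes higher from 6 h to 24 h. The cause of these changes was not tested, apart from the stricter threshold, which calls fewer by construction. The rise of Socs3 at 1 h also lost its call at 0.01. Signal over background was not given, so how far a dim probe set limits a difference is unknown.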
